A study of Mus musculus with 305 samples.

Results

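Bulk RNA-seq libraries of mice that met heroin again after a month without it were compared with libraries of mice that met only saline, in the regions labelled BLA, vHPC and VTA. In this field those labels mean basolateral amygdala, ventral hippocampus and ventral tegmental area. Libraries were taken by their labelled region and group, HH or HS, and those that held under 5e+06 counts were dropped. Of 6 regions with 50 or 51 libraries each, BLA, vHPC and VTA gave 48 libraries with these labels, and 47 were kept, 15.4% of the libraries of the series: 8 HH and 8 HS in BLA, 8 and 8 in vHPC, and 7 and 8 in VTA, where the library of HH mouse 7 was too shallow. All mice were male and wild-type. HH and HS mice both took heroin, an opioid drug, through an intravenous line over 15 d of self-administration and then spent 30 d in withdrawal. HH mice then received a heroin challenge and HS mice a saline challenge, and both went through 2 h of drug-seeking testing. HH and HS are separate mice, while the 3 regions were taken from the same 16 mice, so the regions are not independent of each other. Mice with a saline history, challenged with heroin (SH) or saline (SS) at the same time, were used only to set a first heroin challenge beside the repeated one. The labels give no dose of heroin and no time from the challenge to tissue collection.

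Heroin acts through the µ-opioid receptor, a receptor coupled to inhibitory G proteins that lowers cyclic AMP and neuronal firing where it is expressed. In the VTA, opioids are known to inhibit GABA neurons and so release dopamine neurons from inhibition. The basolateral amygdala attaches learned value to drug cues, and the ventral hippocampus carries contextual information to the accumbens and amygdala. Immediate early genes such as Fos are switched on within minutes by synaptic activity or stress, through calcium, cyclic AMP and MAP kinase signalling, and are commonly read as a trace of recent neuronal activity. Heat shock genes encode chaperones and are induced by heat shock factor when proteins misfold or temperature rises, and glucocorticoid-responsive genes follow the stress hormone corticosterone.

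Total counts ran from 22.24 M (M, mega) to 49.03 M over the 47 libraries, with a median of 31.24 M, and mitochondrial genes took 1.83% to 6.11% of them. Replicate libraries all differed by more than sampling noise: the chi-square of their counts, divided by its degrees of freedom, was at least 12.6 in each of 161 pairs. The code in the labels divides the mice into set 1 and set 2. Each arm had 6 mice of set 1 and 2 of set 2, except HH in VTA with 5 and 2. The p-values measure the spread between single mice.

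Markers of the dissected nuclei and of neighbouring tissue were read first. In VTA the dopamine neuron list, 12 genes such as Th and Slc6a3 (the dopamine transporter), summed to 900 to 5463 CPM (counts per M counts of the library, scaled by TMM) in HH and 3613 to 7682 in HS, with none of its members at 0. The lowest sum belonged to HH mouse 25, whose Slc6a3 was 79.6 CPM, while the other HH libraries held 1363 to 1723 and the HS libraries 1129 to 2670. The VTA library of that mouse thus lacked most of the signal that defines the nucleus. In BLA the reverse was seen in HH mouse 16, which held 116.6 CPM of Slc6a3 and 68.1 of Th, while no other HH or HS library of BLA was above 1.58 and 7.02. Hippocampal subfield genes summed to 682.8 to 1118 CPM in HH and 629.4 to 908.1 in HS in vHPC, above the 323.7 to 557.5 of all BLA libraries. Basolateral amygdala neuron genes summed to 1296 to 2124 CPM in HH and 1490 to 2012 in HS in BLA, but to 1107 to 2086 in vHPC as well, so that list does not set BLA apart from vHPC. In vHPC, HH mouse 18 stood apart from the other libraries of its region by rank correlation.

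Choroid plexus, the tissue that makes cerebrospinal fluid, marked 4 vHPC libraries. Ttr, its most abundant transcript, reached 13450 and 13770 CPM in HH mice 18 and 21, and 2506 and 7051 in HS mice 11 and 20, against at most 161.6 in the other 12. The 15 choroid plexus markers summed to 85 to 22890 CPM in HH and 80.2 to 11590 in HS, and all 15 were higher in HH, with a median log2 difference of 1.57, though none passed the test. Without those 4 libraries Ttr differed by 0.72, and the list was not counted again. In BLA, Ttr was at 2630 and 1322 CPM in HH mice 1 and 5 and at 2268 and 2114 in HS mice 3 and 20, against at most 499.7 in the others. Serotonin neurons lie near the VTA, and Tph2, which makes brain serotonin, was at 47.5 to 63.6 CPM in HS mice 11, 13, 14 and 20 and at most 11.4 in all other VTA libraries of the 2 groups. Such libraries were kept, and values without them are given beside the genes they moved most, though not for whole marker lists. In bulk tissue, fewer cells of a type and less RNA per cell cannot be told apart.

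**Figure D1:**
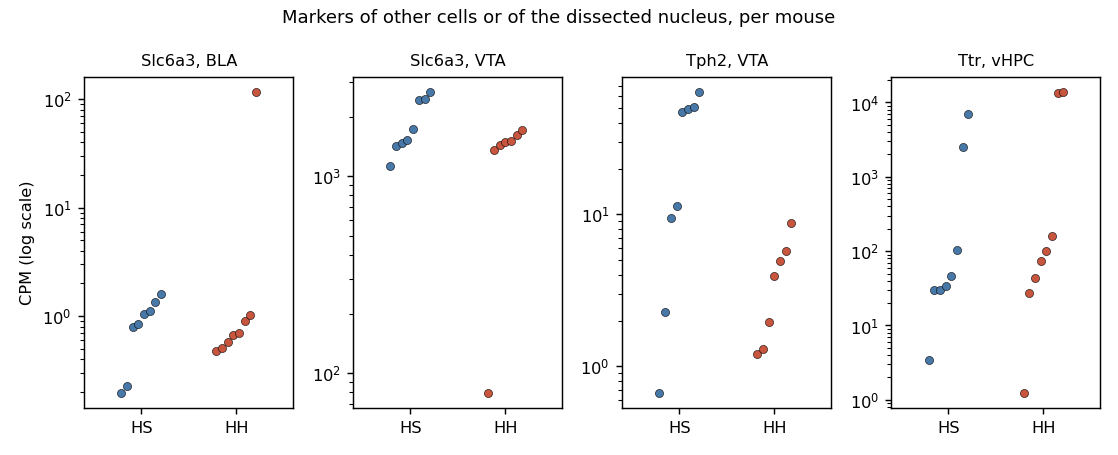
CPM (log scale) of Slc6a3 in BLA and VTA, Tph2 in VTA and Ttr in vHPC, one point per mouse, saline challenge (HS, blue) beside heroin challenge (HH, red). The single high point in BLA is HH mouse 16 at 116.6 CPM, the single low point in VTA is HH mouse 25 at 79.6 CPM, and the high Tph2 points all belong to HS mice.

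No gene passed an adjusted p under 0.05 (edgeR quasi-likelihood test, Benjamini-Hochberg) in any of the 3 regions. In BLA 0 of 18003 genes were called (0%), 312 had an unadjusted p under 0.05 (1.73%), and the smallest adjusted p was 1. In vHPC 0 of 17626 were called (0%), 396 had an unadjusted p under 0.05 (2.25%), and the smallest adjusted p was again 1. In VTA 0 of 17899 were called (0%), 741 were under 0.05 unadjusted (4.14%), and the smallest adjusted p was 0.991. DESeq2 called no gene in BLA or vHPC and 1 in VTA, Xlr3b, described with the values over the 3 regions. In PFC (prefrontal cortex) of the same mice, the same fit called 6 of 18125 genes (0.0331%), and 7.11% were under 0.05 unadjusted. Among genes that averaged 10 CPM or more, the median standard error of a log2 difference was 0.0904 in BLA, 0.102 in vHPC and 0.0815 in VTA, and 0.102%, 1.52% and 0.149% of them differed by more than 0.5 in either direction. Everything below is therefore a description of differences that did not pass the test for single genes.

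The promoters of 3 genes with such a match are shown because their letters name the inputs these genes are known for: the cyclic AMP response element core TGACGT in Fos and Dusp1, and a pair of heat shock element units, GAANNTTC or TTCNNGAA, in Hspa1b. Capitals mark the matches on either strand within the 250 bases before the RefSeq start (build GRCm38.p6), each sequence written 5′ to 3′ on the strand of its gene. Fos lies on the plus strand, at chr12:85473640-85473889, with 1 match 66 bases before the start. Dusp1 lies on the minus strand, at chr17:26508473-26508722, with 3 matches, of which 2 overlap in the palindrome. Hspa1b lies on the minus strand, at chr17:34959239-34959488, with 1 match.
Fos: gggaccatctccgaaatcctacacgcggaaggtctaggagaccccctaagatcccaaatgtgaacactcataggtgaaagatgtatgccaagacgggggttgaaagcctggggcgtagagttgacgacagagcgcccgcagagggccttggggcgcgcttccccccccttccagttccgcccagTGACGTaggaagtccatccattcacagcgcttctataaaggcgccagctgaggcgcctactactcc
Dusp1: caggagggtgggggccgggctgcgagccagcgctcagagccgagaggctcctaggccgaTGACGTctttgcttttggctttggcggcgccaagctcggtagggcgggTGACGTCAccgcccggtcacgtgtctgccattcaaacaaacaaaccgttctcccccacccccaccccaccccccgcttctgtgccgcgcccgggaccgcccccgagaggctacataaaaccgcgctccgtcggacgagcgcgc
Hspa1b: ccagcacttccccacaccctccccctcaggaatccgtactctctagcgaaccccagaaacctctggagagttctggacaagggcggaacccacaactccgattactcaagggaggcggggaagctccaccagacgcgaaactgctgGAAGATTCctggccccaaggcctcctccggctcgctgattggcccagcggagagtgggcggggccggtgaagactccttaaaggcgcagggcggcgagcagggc
TGACGT was found in 6.47% of 32851 RefSeq promoters of this length and in 11 of the 29 immediate early genes that had an entry (37.9%). Either heat shock pair was found in 12.8% of the promoters and in 7 of 14 genes of the heat shock list with an entry (50%). The promoter of Dnajb1, a further heat shock gene, was searched likewise and held neither pair in this window. A match is a description of the letters and not of binding in these mice.

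Most immediate early genes were higher after heroin in every region, by small amounts. Of the 38 listed genes all were measured in BLA and vHPC and 37 in VTA. In BLA 28 of 38 were higher in HH with a median log2 difference of 0.10, where 46.4% of all genes were higher and the median of all genes was -0.01. In vHPC 30 of 38 were higher with a median of 0.09, against 50.8% of all genes, and in VTA 30 of 37 with a median of 0.13, against 50.5%. The members that were higher at an unadjusted p under 0.05 numbered 5 in BLA (background 0.972% of genes), 3 in vHPC (1.18%) and 5 in VTA (1.87%), and none was lower at that level, at which 0.761%, 1.07% and 2.27% of all genes were lower. Higher in all 3 regions were 22 of 37 members (59.5%), against 15.6% of the 16566 genes tested in all 3, and no member was lower in all 3. The list was chosen with earlier results of these data known, so these shares describe its members and are not a test. Those 22 include the AP-1 subunits Fos, Fosb, Fosl2 and Junb, the effector Arc, the orphan receptors Nr4a1 and Nr4a3 and the phosphatases Dusp1, Dusp5 and Dusp6. Without BLA HH mouse 16, vHPC HH mouse 18 or VTA HH mouse 25 the counts of higher members were 30, 31 and 32. The lowest counts over all alternatives were 26, 26 and 23, the last with a score of the neuron types beside the VTA in the fit.

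**Figure D2:**
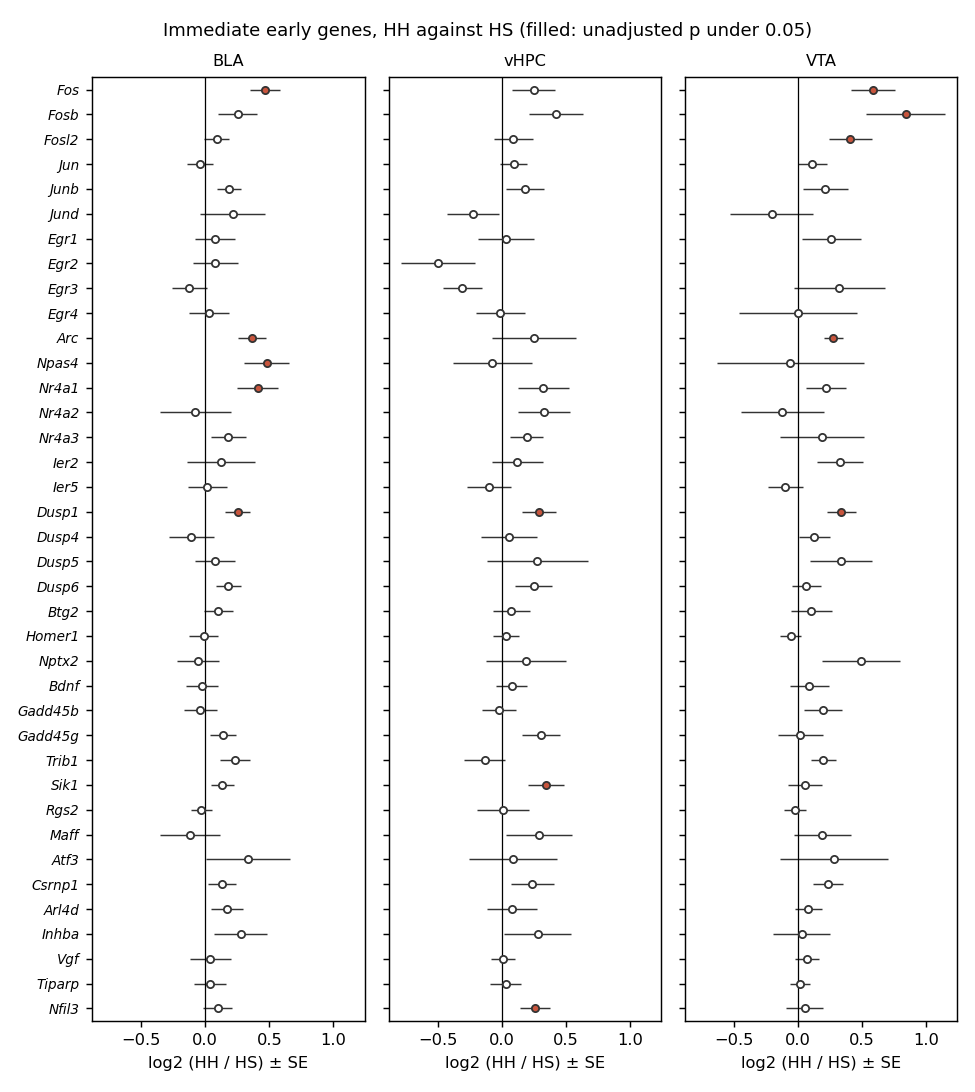
Log2 difference between HH and HS (x axis, bars are standard errors) of each immediate early gene in the 3 regions. Filled points had an unadjusted p under 0.05 (5 in BLA, 3 in vHPC and 5 in VTA), no gene passed the adjusted test, and most points lie to the right of 0 in each region.

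Fos, which encodes a subunit of the AP-1 transcription factor, is at chr12:85473890-85477273 on the plus strand of GRCm38. In BLA its level ran from 22.3 to 41.4 CPM in HH (median 31.3) and from 18.5 to 28.0 in HS (median 21.4), a log2 difference of 0.47 ± 0.116 (SE, n = 8 and 8). All 8 HH mice were above the HS mean and 6 were above every HS mouse. In VTA Fos ran from 16.7 to 26.6 CPM in HH (median 23.0) and from 9.54 to 25.1 in HS (median 14.3), a difference of 0.59 ± 0.171 (SE, n = 7 and 8). All 7 HH mice were above the HS mean, but HS mouse 2 lay as high as the upper HH mice. In vHPC the groups overlapped over most of their range, 10.4 to 18.7 CPM in HH (median 13.8) and 7.35 to 15.6 in HS (median 12.1), with a difference of 0.25 ± 0.168. Its adjusted p was 1 in BLA and vHPC and 0.991 in VTA.

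Fosb, the Fos relative whose truncated product builds up with repeated drug use, was lower in abundance and more variable. It was higher by 0.25 ± 0.153 in BLA, 0.43 ± 0.21 in vHPC and 0.84 ± 0.308 in VTA. In VTA it ran from 1.68 to 4.20 CPM in HH (median 2.38) and from 0.507 to 2.74 in HS (median 1.21), and all 7 HH mice were above the HS mean. Fosl2, another AP-1 subunit, was higher by 0.41 ± 0.169 in VTA and by 0.09 in both BLA and vHPC. Junb was higher by 0.18 to 0.21 in the 3 regions, while Jun and Jund had no common sign.

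Arc, whose protein moves to active synapses and removes AMPA receptors, was higher in all 3 regions. In BLA it ran from 95.2 to 156.2 CPM in HH (median 121.3) and from 78.8 to 128.3 in HS (median 95.7), a log2 difference of 0.36 ± 0.108, with 7 of 8 HH mice above the HS mean. In VTA its level was lower but tightly grouped, 22.5 to 28.8 CPM in HH (median 26.6) and 19.2 to 25.6 in HS (median 21.1), a difference of 0.28 ± 0.0757, with 5 of 7 HH mice above every HS mouse. In vHPC the difference was 0.25 ± 0.328, and both groups were wide, from 39.2 to 131.9 CPM in HH and from 22.3 to 156.6 in HS. The 2 groups separated partly in BLA and VTA and not in vHPC.

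**Figure D3:**
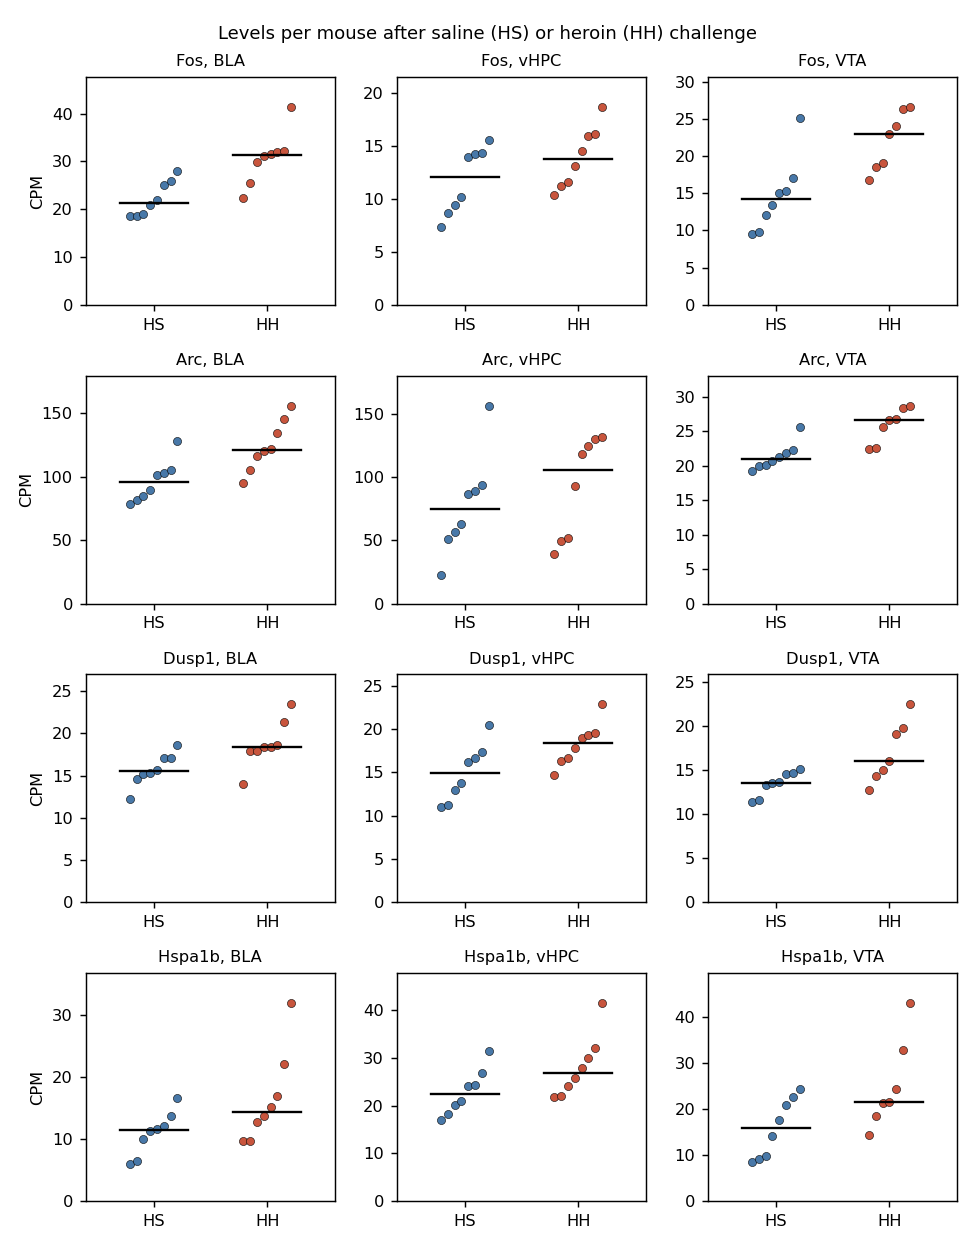
CPM (y axis) of Fos, Arc, Dusp1 and Hspa1b in each mouse of the 3 regions, HS in blue and HH in red, with the group median as a bar. Fos medians were 31.3 in HH and 21.4 in HS in BLA and 23.0 and 14.3 in VTA, while in vHPC the groups overlap over most of their range.

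Npas4, a transcription factor induced selectively by calcium entry in active neurons, was higher by 0.48 ± 0.175 in BLA. Its BLA level ran from 17.0 to 29.1 CPM in HH and from 8.15 to 18.2 in HS. The medians were close, 17.2 and 16.2, and the groups separated only at 3 high HH mice (7, 9 and 16) and 2 low HS mice (3 and 20). In vHPC Npas4 differed by -0.07 ± 0.308 and in VTA, where it was near 1 CPM, by -0.06 ± 0.574. Nr4a1, an orphan nuclear receptor of the early response, was higher by 0.41 ± 0.16 in BLA, 0.33 ± 0.198 in vHPC and 0.22 ± 0.157 in VTA. The Egr zinc-finger factors went with no common sign. Egr1 differed by 0.08 ± 0.156, 0.03 ± 0.221 and 0.26 ± 0.231 in BLA, vHPC and VTA. In vHPC Egr2 was lower by 0.50 ± 0.289 and Egr3 by 0.31 ± 0.151, each with 1 of 8 HH mice above the HS mean.

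Dusp1, a phosphatase that switches MAP kinases off again, had about the same difference in each region. In BLA it ran from 14.0 to 23.4 CPM in HH (median 18.4) and from 12.2 to 18.6 in HS (median 15.5), a log2 difference of 0.25 ± 0.0991. In vHPC the ranges were 14.7 to 22.9 (median 18.4) and 11.0 to 20.5 (median 15.0), a difference of 0.29 ± 0.13 with all 8 HH mice above the HS mean. In VTA they were 12.8 to 22.5 (median 16.0) and 11.4 to 15.1 (median 13.6), a difference of 0.34 ± 0.112. The groups overlapped in all 3. Dusp6, the phosphatase of ERK, was higher by 0.18 ± 0.0988 in BLA, 0.25 ± 0.145 in vHPC and 0.07 ± 0.111 in VTA. In vHPC the other early genes with the smallest p were Sik1, a kinase that restrains CREB coactivators (0.34 ± 0.141, 8 of 8 HH mice above the HS mean), and Nfil3, a transcriptional repressor tied to the clock (0.26 ± 0.115, 8 of 8). Without the 4 vHPC libraries rich in choroid plexus, Sik1 was at 0.10 and Nfil3 at 0.10. Among set 1 mice alone Fos was at 0.51, 0.18 and 0.44 and Arc at 0.33, 0.16 and 0.27 in BLA, vHPC and VTA. Set 2 held 2 mice a group, too few for values of its own.

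Chaperone genes were also mostly higher after heroin. Of 20 genes on the heat shock and cold-inducible list, 17 were higher in BLA, 17 in vHPC and 18 in VTA, with median log2 differences of 0.11, 0.14 and 0.12. The shares of all genes that were higher were 46.4%, 50.8% and 50.5%. At an unadjusted p under 0.05, 5, 5 and 7 of the 20 were higher (background 0.972%, 1.18% and 1.87% of genes). At that level 1 was lower, Cirbp in vHPC, where 1.07% of genes were lower. Higher in all 3 regions were 15 of 20 (75%), against 15.6% of all genes. This list too was chosen with earlier results of these data known, so the share is not a test. Astrocyte markers were mostly higher too, 11, 10 and 10 of 12 in BLA, vHPC and VTA with medians of 0.05, 0.06 and 0.06, and 9 of 12 in all 3 (75%). Their summed levels overlapped, at 4454 to 5478 CPM in HH and 4445 to 5505 in HS in BLA, 3775 to 5954 and 4472 to 5571 in vHPC, and 4209 to 4932 and 4080 to 4610 in VTA, and their part in the early, heat shock and glucocorticoid values was not tested. The only astrocyte marker lower in all 3 was Slc1a3. On the heat shock and cold-inducible list only Cirbp, an RNA-binding protein made when cells cool, was lower in all 3, by 0.12 ± 0.0793, 0.22 ± 0.0881 and 0.08 ± 0.114. Rbm3, the other cold-inducible gene, differed by -0.16, -0.03 and 0.03. Body temperature is not in the labels.

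Hspa1b, the inducible HSP70 gene, ran in BLA from 9.59 to 31.9 CPM in HH (median 14.4) and from 5.95 to 16.6 in HS (median 11.5), a log2 difference of 0.59 ± 0.24. In VTA it ran from 14.4 to 43.1 CPM in HH (median 21.5) and from 8.51 to 24.3 in HS (median 15.9), a difference of 0.66 ± 0.249. The highest HH mouse in both was mouse 25, and without it the differences were 0.38 in BLA and 0.48 in VTA. In vHPC the ranges were 21.9 to 41.6 and 17.1 to 31.4, a difference of 0.30 ± 0.145, with mouse 7 highest. The groups overlapped in every region. Hspa1a, its near-identical neighbour, was higher by 0.31 ± 0.233, 0.25 ± 0.165 and 0.53 ± 0.198, or by 0.32 in VTA without mouse 25, and how reads were divided between the 2 copies is uncertain.

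Hspb1, a small heat shock protein, was higher by 0.38 ± 0.176 in BLA, 0.84 ± 0.27 in vHPC and 0.49 ± 0.203 in VTA. In vHPC it ran from 7.72 to 34.7 CPM in HH (median 11.9) and from 5.83 to 11.7 in HS (median 7.32), and all 8 HH mice were above the HS mean. The highest was mouse 18, the library that stood apart, and without it the difference was 0.50, or 0.40 without all 4 libraries rich in choroid plexus. Dnajb1, the HSP40 partner of HSP70, was higher by 0.17 ± 0.0903, 0.22 ± 0.0839 and 0.18 ± 0.0621. Bag3, a co-chaperone of selective autophagy, was higher by 0.25 ± 0.199, 0.55 ± 0.199 and 0.42 ± 0.188. Hspa8, the constitutive HSP70, differed by 0.04 ± 0.0643, 0.17 ± 0.0772 and -0.03 ± 0.069.

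**Figure D4:**
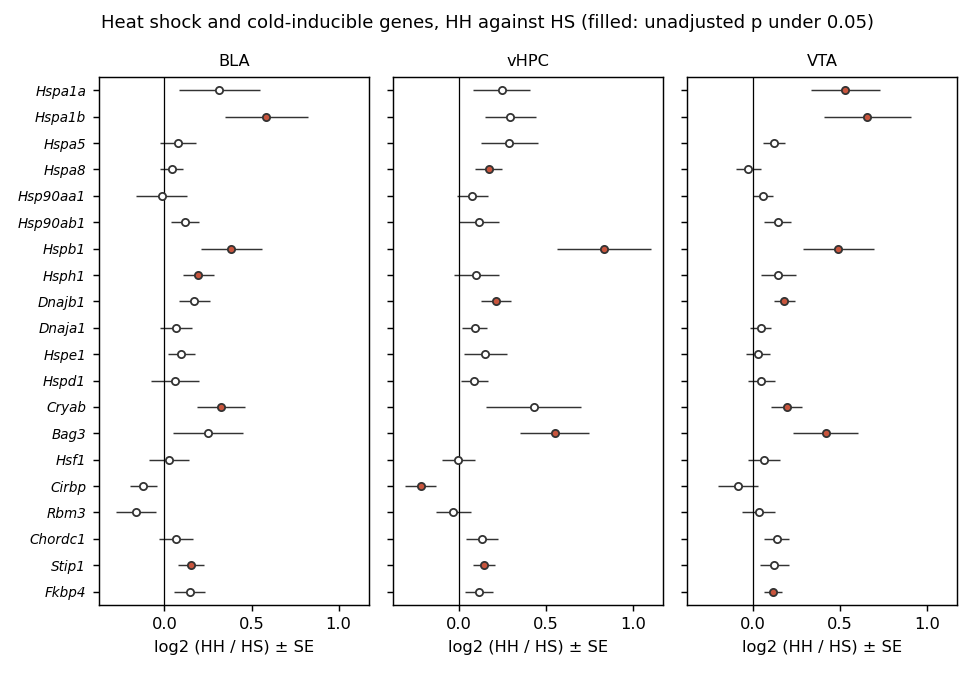
Log2 difference between HH and HS (x axis, bars are standard errors) of each gene of the heat shock and cold-inducible list in the 3 regions, filled where the unadjusted p was under 0.05. The point farthest to the right is Hspa1b in BLA and VTA and Hspb1 in vHPC. Cirbp lies left of 0 in all 3 regions, and none of the genes passed the adjusted test.

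Glucocorticoid-responsive genes leaned the same way with smaller counts under the unadjusted threshold. Of 29 genes tested 20 were higher in BLA, 26 in vHPC and 22 in VTA, with median log2 differences of 0.08, 0.13 and 0.07. Among all genes 46.4%, 50.8% and 50.5% were higher. In each region 2 of the 29 were higher at an unadjusted p under 0.05 (background 0.972%, 1.18% and 1.87%). Higher in all 3 regions were 17 of 29 (58.6%), against 15.6% of all genes, on a list likewise chosen with earlier results known. Galnt15 and Nr3c1, the glucocorticoid receptor, were lower in all 3 by at most 0.06. With the dopamine neuron score in the fit, 13 of the 29 were higher in VTA, and without HH mouse 25, 17 were. Zbtb16, a zinc-finger repressor induced by the hormone, was higher by 0.25 ± 0.104, 0.19 ± 0.104 and 0.38 ± 0.126. In VTA it ran from 65.3 to 94.3 CPM in HH (median 73.8) and from 42.6 to 79.8 in HS (median 58.4), with all 7 HH mice above the HS mean. Fkbp5, the co-chaperone most used as a marker of the hormone, differed by only 0.02 ± 0.068, 0.03 ± 0.118 and 0.17 ± 0.103, and Sgk1 by 0.15 ± 0.1, 0.28 ± 0.255 and -0.06 ± 0.0798. Cdkn1a, a cell cycle inhibitor, was higher by 0.57 ± 0.211 in vHPC, where its ranges were 3.41 to 6.50 CPM in HH and 1.81 to 4.70 in HS. Per1, a clock gene that also answers the hormone, was higher by 0.26 ± 0.099 in VTA. There 17 of 21 clock genes were higher, against 50.5% of all genes, while 8 were higher in BLA and 12 in vHPC.

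The receptors and peptides of the opioid system did not separate the groups. Of the 8 genes 6 were higher in BLA, 4 in vHPC and 5 in VTA, and none had an unadjusted p under 0.05. Oprm1, the µ receptor on which heroin acts, ran in VTA from 10.2 to 18.3 CPM in HH (median 14.6) and from 11.9 to 21.7 in HS (median 17.3), a log2 difference of -0.25 ± 0.139, with 1 of 7 HH mice above the HS mean. With the shallow library of HH mouse 7 included the difference was -0.01. In BLA it differed by 0.05 ± 0.142 and in vHPC by -0.11 ± 0.306. Oprk1, the κ receptor, which dopamine neurons carry, differed by -0.43 ± 0.234 in VTA, by 0.20 ± 0.174 in BLA and by 0.15 ± 0.234 in vHPC. Its lowest VTA value was that of HH mouse 25, 11.9 CPM, and without that mouse the difference was -0.27. The enkephalin precursor Penk differed by 0.13 ± 0.304, 0.27 ± 0.465 and 0.07 ± 0.106. The dynorphin precursor Pdyn differed by 0.31 ± 0.301 in BLA, and in vHPC its difference of 0.90 ± 0.801 turned to -0.50 without HH mouse 21.

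Genes of dopamine signalling were mostly lower in VTA and had no common sign elsewhere. In VTA 11 of 13 were lower, with a median log2 difference of -0.32, where 50.5% of all genes were higher. None of the 13 had an unadjusted p under 0.05. The list summed to a median of 3348 CPM in HH and 3548 in HS, and was not counted again without HH mouse 25. Th, which makes the dopamine precursor, ran from 36.2 to 811.4 CPM in HH (median 600.7) and from 552.1 to 971.0 in HS (median 618.8), a difference of -0.38 ± 0.356, or -0.17 without mouse 25. Slc6a3 differed by -0.50 ± 0.369, or -0.29 without it, and no HH mouse was above the HS mean. The autoreceptor Drd2 differed by -0.32 ± 0.206, or -0.17 without it. Of the 12 dopamine neuron markers 11 were lower in HH in VTA, none under an unadjusted p of 0.05. Their part in the other VTA results was not tested beyond the fit with their score. In BLA, Slc6a3 was among the genes with the smallest p (4.07 ± 1.21), but without HH mouse 16 its difference was -0.34.

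Transmitter receptors differed little. In vHPC 21 of 24 glutamate receptor genes were lower in HH, with a median log2 difference of -0.07 and none under an unadjusted p of 0.05. In VTA 14 of 25 were higher, 3 of them under that threshold (background 1.87%): Grm8 by 0.37 ± 0.11, Grin3a by 0.18 ± 0.073 and Grm4 by 0.26 ± 0.121. Grm8 and Grm4 encode metabotropic receptors that curb release from presynaptic terminals. Grm8 ran from 14.9 to 21.9 CPM in HH (median 18.4) and from 11.3 to 19.5 in HS (median 13.5), and all 7 HH mice were above the HS mean. In the GABA list 15 of 21 genes were lower in vHPC and 15 of 22 higher in VTA. Gabrd, the δ subunit of extrasynaptic receptors, was lower by 0.57 ± 0.243 in vHPC and Gabra5 was higher by 0.26 ± 0.103 in VTA. Of the 38 G protein, RGS, adenylyl cyclase and GIRK genes 19 were higher in BLA and 19 in VTA. In vHPC 11 of the 37 tested were higher and 26 lower, with a median log2 difference of -0.06. The shares of all genes that were higher were 46.4% in BLA, 50.8% in vHPC and 50.5% in VTA. From this list Rgs4 (0.16 ± 0.0617) and Adcy8 (0.17 ± 0.0812) were higher in VTA under the unadjusted threshold (background 1.87%). With the score of the neuron types beside the VTA in the fit, the differences were 0.23 for Grm8, 0.13 for Grm4, 0.09 for Grin3a, 0.12 for Gabra5, 0.09 for Rgs4 and 0.09 for Adcy8.

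In BLA, after Fos and Arc, genes higher in HH with the smallest p included Slc6a3 (mouse 16), Slc38a2 and Tulp3. Slc38a2, a carrier of neutral amino acids, ran from 99 to 116.4 CPM in HH (median 110) and from 84.8 to 104.2 in HS (median 95.4), a log2 difference of 0.19 ± 0.0574. All 8 HH mice were above the HS mean and 5 were above every HS mouse. Of the 15 oligodendrocyte markers 14 were higher in BLA with a median of 0.24, where 46.4% of all genes were higher. They summed to 2516 to 4726 CPM in HH and 2375 to 3342 in HS. In vHPC 13 of 15 were higher (median 0.20, against 50.8% of all genes), and in VTA 12 of 15 were lower (median -0.06). With their score in the fit 0 genes were called in BLA (edgeR), as without it, so that count cannot show their part in the BLA values. Tulp3, which brings receptors into cilia, was higher by 0.39 ± 0.126 at 7.74 to 11.1 CPM in HH and 5.77 to 11.5 in HS, and the HH range lay inside that of HS.

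The genes lower in HH in BLA were Acot2, Alox12b, Nepro, Fam45a, Ly86 and Gtf3a, each with no HH mouse above the HS mean. Acot2, a mitochondrial acyl-CoA thioesterase, ran from 7.18 to 11.2 CPM in HH (median 8.58) and from 9.46 to 12.8 in HS (median 11.6), a log2 difference of -0.36 ± 0.108. Nepro ran from 4.77 to 6.70 CPM in HH (median 5.66) and from 6.23 to 7.60 in HS (median 6.89), a difference of -0.29 ± 0.0973, and 7 of 8 HH mice were below every HS mouse. Gtf3a, the factor that starts transcription of the small ribosomal RNA genes of RNA polymerase III, was lower by 0.32 ± 0.114. Ly86, an immune receptor partner of microglia and B cells, was lower by 0.30 ± 0.106, and 9 of 12 microglia markers were lower in BLA with a median of -0.03. In vHPC 11 of 12 were lower (median -0.08), in VTA 9 of 12 (median -0.10), and in all 3 regions 6 of 12 (50%), against 17% of all genes.

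In vHPC the higher genes with the smallest p were Fam131c, Hspa1l, Wasf2, Tinagl1, P4ha2 and Ifnar2. Hspa1l, an HSP70 relative beside Hspa1a and Hspa1b at chr17:34972703-34979285, ran from 1.31 to 1.95 CPM in HH (median 1.49) and from 0.542 to 1.26 in HS (median 0.973), a log2 difference of 0.71 ± 0.2. The groups did not overlap, yet the adjusted p was 1. Wasf2, which drives branching of actin, ran from 15.3 to 28.8 CPM in HH (median 21.2) and from 14.2 to 17.7 in HS (median 16.1), a difference of 0.41 ± 0.118, with 6 of 8 HH mice above every HS mouse. Ifnar2, a subunit of the type I interferon receptor, was higher by 0.43 ± 0.131, 9.68 to 15.9 CPM in HH against 7.69 to 12.6 in HS. P4ha2, an enzyme that hydroxylates collagen prolines, was higher by 0.27 ± 0.081 in vHPC, 0.24 ± 0.086 in BLA and 0.12 ± 0.0873 in VTA. Tinagl1, a matrix protein, was higher by 0.93 ± 0.27, its 2 highest values were those of HH mice 18 (28.4 CPM) and 21 (21.6), which also held choroid plexus, and without mouse 18 the difference was 0.68, or 0.59 without all 4 libraries rich in choroid plexus. All 12 meningeal fibroblast markers were higher in vHPC, with a median of 1.05. They summed to 79.9 to 1132 CPM in HH and 65.8 to 375.0 in HS. The highest sum was that of HH mouse 18, and the median sums were 155.3 CPM in HH and 185.3 in HS. In VTA 11 of 12 were higher (median 0.52) and in BLA 4 of 12 (median -0.12). The highest VTA sum was 258.3 CPM in HH mouse 16, against at most 77.8 in HS, and the median sums there were 58.9 CPM in HH and 59.2 in HS.

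Lower in HH in vHPC were Mcm3, Ccsap, Lingo3, Rasd2, Hist3h2bb-ps and Rilpl1. Mcm3, a subunit of the replication helicase, ran from 1.11 to 2.12 CPM in HH (median 1.43) and from 1.70 to 3.55 in HS (median 2.58), a log2 difference of -0.72 ± 0.192, with 6 of 8 HH mice below every HS mouse. Ccsap, a protein of centrioles and cilia, ran from 36.3 to 48.7 CPM in HH (median 43.7) and from 45.2 to 61.6 in HS (median 50.8), a difference of -0.29 ± 0.0819. Rasd2, a small GTPase known as Rhes, was lower by 0.33 ± 0.0982 and Lingo3 by 0.33 ± 0.0983. No HH mouse was above the HS mean for Mcm3, Ccsap, Lingo3, Rasd2 or Rilpl1.

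In VTA the higher genes with the smallest p were Atp5g2, Nt5c3b, Fam160b2, Ccdc9, Arc and Kcnt1. Atp5g2, a gene for subunit c of mitochondrial ATP synthase, lies at chr15:102662864-102672352 on the minus strand. It ran from 42.7 to 50.4 CPM in HH (median 45.5) and from 36.5 to 41.0 in HS (median 38.4), a log2 difference of 0.24 ± 0.0541. All 7 HH mice were above every HS mouse, and the adjusted p was 0.991. Kcnt1, a sodium-activated potassium channel, ran from 96.3 to 116.9 CPM in HH (median 104.3) and from 73.7 to 109.6 in HS (median 85.8), a difference of 0.26 ± 0.074. Nt5c3b, a nucleotidase, was higher by 0.27 ± 0.0692, with HH mouse 25 highest at 32.7 CPM, and by 0.22 without it. Bcan, a proteoglycan of perineuronal nets, was higher by 0.21 ± 0.0637 with 7 of 7 HH mice above the HS mean.

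Lower in HH in VTA were Xlr3b, Tph2, Pop4, Nars2, Mcm8 and Sft2d3, and for each no HH mouse was above the HS mean. Tph2 ran from 1.21 to 8.72 CPM in HH (median 3.91) and from 0.669 to 63.6 in HS (median 29.4), a log2 difference of -2.88 ± 0.704 that rests on the 4 HS mice at 47.5 CPM or more named earlier. With the score of the neighbouring neurons, a list that holds Tph2 itself, in the fit, the difference was -0.75. The serotonin transporter Slc6a4, a second marker of those neurons, differed by -2.85 ± 0.897, a value not fitted with that score. The list of neurons beside the VTA summed to 34.2 to 60.1 CPM in HH and 33.1 to 128.5 in HS. Of its 9 members tested, 6 were higher in HH and 3 lower, with a median log2 difference of 0.08. Nars2, the mitochondrial asparaginyl-tRNA synthetase, ran from 11.5 to 14.4 CPM in HH (median 12.0) and from 13.6 to 18.3 in HS (median 15.6), a difference of -0.33 ± 0.0814. Pop4, a subunit of RNase P, was lower by 0.32 ± 0.0781 and Mcm8, a helicase of DNA repair, by 0.51 ± 0.131. Acer2, an alkaline ceramidase, was lower by 0.41 ± 0.186 in VTA, 0.36 ± 0.215 in vHPC and 0.27 ± 0.163 in BLA.

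The mean difference over the 3 regions was tested next, which does not require the same direction in each. No gene of 20777 was called (0%; limma-voom with the correlation within a mouse), and 951 had an unadjusted p under 0.05 (4.58%). The smallest adjusted p values were 0.0609 for Xlr3b, with a mean log2 difference of -1.70 ± 0.321 in limma's log2 CPM, and 0.0997 for Fos, with 0.45 ± 0.0909. P4ha2 followed with 0.21 ± 0.0457 (adjusted p = 0.275), Dusp1 with 0.28 ± 0.0667 (0.399) and Zbtb16 with 0.27 ± 0.0675 (0.545), all by limma. The value of Xlr3b is larger than those edgeR gave in the single regions (-0.97, -0.87 and -1.45). On counts summed over the regions edgeR gave -1.34 with an adjusted p of 0.963, far from a call. On the lower side were Psg16 at -0.42 ± 0.112, Tfr2, an iron-sensing transferrin receptor, at -0.36 ± 0.0953, and Ttc5 at -0.19 ± 0.0502, each with an adjusted p of 0.553. Leaving out 1 mouse gave 0 to 2 calls. Fos was called without HH mouse 1 (0.51, adjusted p = 0.0184) and without HS mouse 2 (0.52, adjusted p = 0.0128). Xlr3b was called without any of HH mice 1, 7, 9 and 18 or HS mice 2 and 11, with adjusted p from 0.0153 to 0.0388. With the set of the mice in the fit both had an adjusted p of 0.181. Without BLA HH mouse 16, vHPC HH mouse 18 and VTA HH mouse 25 both were at 0.336, with differences of 0.45 for Fos and -1.63 for Xlr3b.

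Xlr3b belongs to the X-linked lymphocyte-regulated family and lies at chrX:73192207-73202930 on the plus strand. Its family has near-identical copies, so the assignment of reads between Xlr3a, Xlr3b and Xlr3c is uncertain. On counts scaled over all 4 groups, Xlr3b ran in VTA from 0.582 to 3.69 CPM in HH (median 2.46) and from 3.24 to 8.79 in HS (median 6.31), a log2 difference of -1.45 ± 0.309. In VTA 5 of 7 HH mice were below every HS mouse, and DESeq2 gave -1.46 ± 0.292 with an adjusted p of 0.0102, while edgeR gave 0.991. In BLA it ran from 0.160 to 3.60 CPM in HH (median 0.854) and from 0.711 to 4.09 in HS (median 2.70), a difference of -0.97 ± 0.531. In vHPC the ranges were 0.0302 to 4.29 (median 1.28) and 1.19 to 5.43 (median 2.47), a difference of -0.87 ± 0.577. HH mouse 21 was the lowest in vHPC and VTA and HH mouse 25 the lowest in BLA. The saline-history groups lay on the other side of each other: medians were higher in SH than in SS, 4.48 and 1.93 CPM in VTA, 1.53 and 0.669 in BLA, and 1.99 and 0.752 in vHPC. Xlr3a, the only other member above 1 CPM in VTA, was lower there by 0.53 ± 0.237 in HH.

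**Figure D5:**
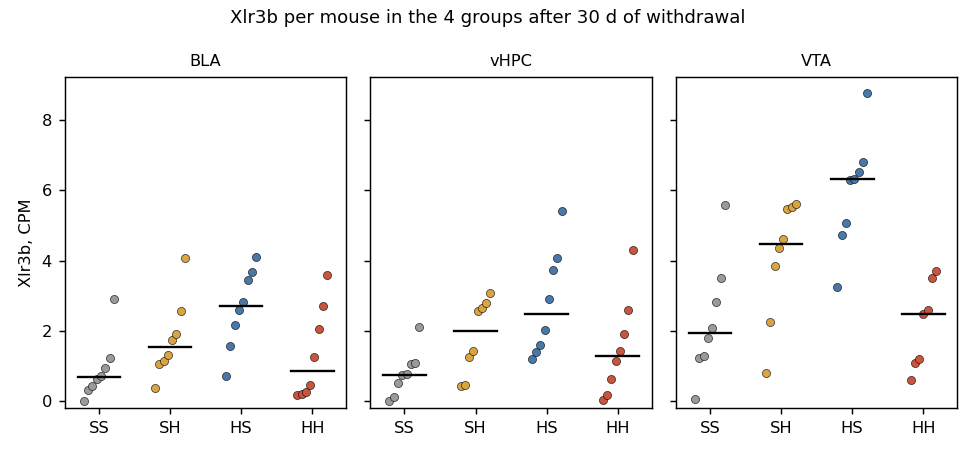
CPM of Xlr3b in every mouse of the 4 groups taken after 30 d of withdrawal, labelled with 2 letters, S for saline or H for heroin, history before challenge, with the group median as a bar. In VTA the HS mice run from 3.24 to 8.79 and the HH mice from 0.582 to 3.69, and in all 3 regions SH medians lie above SS medians while HH medians lie below HS medians.

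The response to heroin was then compared between the regions, with the mouse as a block. No gene of 20777 differed at an adjusted p under 0.05 (0%; edgeR) between vHPC and BLA, VTA and BLA, or VTA and vHPC, and 360 (1.73%), 338 (1.63%) and 656 (3.16%) had an unadjusted p under 0.05. The genes named here have a gene name and average at least 1 CPM over the 3 regions together, not over the pair compared. Among them the smallest p for vHPC against BLA belonged to Sec61g, with a difference of 0.46 ± 0.109 (adjusted p = 1, edgeR). Sec61g encodes a subunit of the channel that carries proteins into the endoplasmic reticulum. It differed by -0.15 ± 0.065 in BLA, 0.31 ± 0.103 in vHPC and -0.06 ± 0.0611 in VTA. Slc35b1, which carries ATP into the same compartment, was next of the higher genes with 0.31 ± 0.0876, from -0.15 ± 0.0619 in BLA to 0.15 ± 0.075 in vHPC. On the lower side of vHPC against BLA were Cnpy1 at -3.46 ± 0.937, B3galt4 at -0.71 ± 0.221, Gipr, the receptor of an incretin hormone, at -1.29 ± 0.402 and Trh, the thyrotropin-releasing hormone precursor, at -3.06 ± 1.06. Cnpy1 was too low to be tested in BLA or vHPC alone, and Trh in vHPC alone. Between VTA and vHPC the kinase Hipk4 led with 0.73 ± 0.171, from -0.28 ± 0.116 in vHPC to 0.40 ± 0.178 in VTA, and Lingo3 followed with 0.65 ± 0.161. In the other direction were Ifnar2 at -0.58 ± 0.164, Ripk1, a kinase of inflammatory cell death, at -0.61 ± 0.179 and Rfc3, a clamp loader of replication, at -0.64 ± 0.191. Between VTA and BLA the leading genes included Tph2, Slc6a4 and Pitx3, genes of serotonin and dopamine neurons. Slc6a4 and Pitx3 were too low to be tested in BLA alone, where Tph2 averaged 0.39 CPM. In VTA alone Pitx3 differed by -0.40 ± 0.338. Without BLA HH mouse 16, vHPC HH mouse 18 and VTA HH mouse 25, Tph2 was at -3.23 and Pitx3 at -1.61. Outside those genes was Eef2k, the kinase of a translation elongation factor, at 0.32 ± 0.0962. Fos had larger values in BLA and VTA than in vHPC, but no test showed it to differ between regions.

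To set the repeated exposure beside a first one, HH minus HS was compared with SH minus SS, the effect of the challenge in mice with a saline history. The first challenge called no gene in any of the 3 regions by edgeR (0% of 17999, 17893 and 17766 genes), with 607 (3.37%), 558 (3.12%) and 653 (3.68%) genes at an unadjusted p under 0.05. The difference between the challenges called no gene either (0% of 19542, 19396 and 19625), with 447 (2.29%), 712 (3.67%) and 1101 (5.61%) under 0.05. Fos was higher after the first challenge too, by 0.34 ± 0.143 in BLA, 0.26 ± 0.169 in vHPC and 0.34 ± 0.158 in VTA. Arc differed by 0.07, -0.01 and -0.12 after the first challenge, and Dusp1 by -0.03, -0.01 and -0.16. In VTA Egr1 was at -0.66 ± 0.258 after the first challenge and 0.26 ± 0.231 after the repeated one, a difference of 0.92 ± 0.367 (adjusted p = 0.854, edgeR). Per1, Nr4a1, Zbtb16 and Dusp1 in VTA likewise had negative values after the first and positive values after the repeated challenge, with differences of 0.42 to 0.52 and adjusted p of 0.854 by edgeR.

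The smallest p of that comparison was that of Nars2 in VTA. It differed by 0.24 ± 0.0799 after the first challenge and by -0.33 ± 0.0814 after the repeated one, a difference of -0.57 ± 0.108 (adjusted p = 0.172 by edgeR, 0.0206 by DESeq2). Mcm8 went the same way, with 0.34 ± 0.143 and -0.51 ± 0.131 and a difference of -0.84 ± 0.187 (adjusted p = 0.787, edgeR). Heroin and saline histories were divided differently over the sets of mice, which entered this fit only as an alternative.

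PFC of the same mice gives a scale for these values. There Nr4a1 (0.63 ± 0.103), Egr2 (0.88 ± 0.161), Dusp6 (0.46 ± 0.0819), Fosl2 (0.40 ± 0.0721) and Dnajb5 (0.31 ± 0.0579) rose and Hist1h1c fell by 0.43 ± 0.0796, with adjusted p of 0.0365 to 0.0466 by edgeR. Set beside them, Nr4a1 was at 0.41, 0.33 and 0.22 in BLA, vHPC and VTA, Dusp6 at 0.18, 0.25 and 0.07, and Egr2 at 0.08 in BLA and -0.50 in vHPC. Fos was at 0.62 ± 0.145 in PFC and at 0.47, 0.25 and 0.59 in the 3 regions. The difference of the heroin effect from that in PFC passed the test for no gene of 21778 in BLA, vHPC or VTA (0%; edgeR), with 451 (2.07%), 875 (4.02%) and 608 (2.79%) genes under an unadjusted p of 0.05. Egr2 in vHPC had a difference from PFC of -1.40 ± 0.392 (adjusted p = 0.999), and Fos in VTA one of -0.02 ± 0.189 (adjusted p = 1), both by edgeR.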

How the data were processed

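The libraries are strand-specific, ribosomal RNA-depleted preparations of single mice and regions, per the labels. The authors deposited raw read counts per Ensembl gene; FastQC, HISAT2, SAMtools and HTSeq with build mm10 are named in the submitters' processing notes, and their versions, settings and annotation release are not given in the sources used here. Symbols come from a table of gene names and coordinates from GENCODE M21 (GRCm38); 52403 of 52636 genes had a symbol. The other deposited files were not used. All value columns used matched a sample by the code in its title.

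Groups came from the labels, and libraries under 5e+06 counts were left out. Within each region, genes were kept at a minimum count of 10 (filterByExpr), scaled by TMM and fitted with edgeR 4.0.16 in R 4.3.3, HH against HS, with Benjamini-Hochberg adjustment over all genes tested and a threshold of 0.05. Log2 differences carry a prior count of 1, and their standard errors were derived from the quasi-likelihood F. Levels in CPM use the TMM scaling, and are not per length, so they are compared within a gene only. Differences between regions used 1 joint edgeR fit with the mouse as a block, since the labels give the same mouse numbers to all regions; the residuals of libraries of the same mouse correlated with medians of -0.0146, -0.00768 and 0.0224. The mean over regions used limma 3.58.1 with voom and an estimated correlation within a mouse of -0.0126. DESeq2 1.42.0, other scalings, filters, covariates and left-out libraries were alternatives. Leaving out libraries that stood apart, by rank correlation or by dopamine markers, or were rich in choroid plexus was chosen after seeing the data. So were the midbrain neighbour score, the counts of list members and the PFC comparison. The fits were tested on simulated data.

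Named genes are, per region, the 6 higher and 6 lower genes with the smallest p and a mean of at least 1 CPM, 4 of each for the other comparisons, 19 fixed genes and up to 3 members of each list by p; other members of the early, heat shock and glucocorticoid lists, and the genes called in PFC, were picked with their values in view. Some genes that this rule names are not reported here. The members and the 13 process and 18 cell type lists were chosen with earlier results of these data known. Lists are described by counts and medians, without a set test.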

Additional observations from a re-analysis of the deposited data

Results flagged for a closer look

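Values that lie far from the rest of their group, by Dixon's criterion at the 95% level on log2 CPM with 0.5 added, were found in 17 of 170 groups of 7 or 8 libraries examined (10%), where chance gives about 1 in 20. Of these 6 came from the VTA library of HH mouse 25. It held 29.4 CPM of Drd2 (74.6 to 111.6 in the other HH mice), 79.6 of Slc6a3 (1363 to 1723), 36.2 of Th (546.1 to 811.4) and 11.9 of Oprk1 (35.4 to 52.8), all low. The same library was high in Nt5c3b, 32.7 CPM against 25.3 to 27.4, and in Oprd1, the δ opioid receptor, 16.7 against 7.18 to 9.67.

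In BLA, HH mouse 16 was high in Slc6a3 (116.6 CPM against 0.477 to 1.02) and Th (68.1 against 0.954 to 7.02). BLA HH mouse 5 was high in Sgk1 (214.6 against 125.7 to 161.4) and low in Tulp3 (7.74 against 9.73 to 11.1), HH mouse 7 was low in Fam45a (29.9 against 31.8 to 33.3), HH mouse 25 was low in Pdyn (23.7 against 57.7 to 86.5), and HS mouse 14 was low in Oprk1 (11.3 against 20.8 to 35.6). In vHPC, HS mouse 23 was high in Oprk1 (9.84 against 2.71 to 4.37) and Pdyn (9.78 against 0.984 to 2.74), HS mouse 3 in Fam131c (1.44 against 0.645 to 0.887) and HH mouse 16 in Hist3h2bb-ps (4.21 against 2.17 to 2.98). The cause of these values was not tested.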

How the results depend on the processing

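Depth does not limit the abundant genes, but genes near 1 CPM rest on few counts, and with 7 or 8 mice a group the median standard errors given in the report bound what could be seen. The count of called genes stayed at 0 in BLA and vHPC under each of 29 alternatives and at 0 in VTA under 28; DESeq2 called 1 gene in VTA. For history by challenge in VTA DESeq2 also called 1. Leaving out 1 mouse gave 0 to 2 calls for the mean over regions. Without any filter on low counts, 2293, 2621 and 3102 genes had an unadjusted p under 0.05 in BLA, vHPC and VTA, and with the score of neighbouring midbrain neurons (an alternative chosen after seeing the data) 447 did in VTA. For the differences between regions, the fit without the mouse block (no pairing) called 0 genes for each pair, with 436, 380 and 746 genes under an unadjusted p of 0.05; the block thus changed no call. Higher early genes numbered 26 to 32 in BLA, 26 to 32 in vHPC and 23 to 32 in VTA over all alternatives.

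Of 6037 values of named genes under an alternative, 14 turned their sign; genes within 1 standard error of 0 were given no direction. DESeq2 turned Slc6a3 (-0.32) and Slc18a2 (-0.00201) in BLA, and so did leaving out HH mouse 16 (-0.34 and -0.00339); over all left-out mice they ran from -0.34 to 4.26 and from -0.00339 to 0.71. Pdyn in vHPC turned with limma-voom (-0.12), in set 1 mice (-0.0877), without HH mouse 21 (-0.50, of a range up to 1.55 over left-out mice) and without the 4 libraries rich in choroid plexus (-0.57). In VTA, set 1 mice alone turned Dio2 (-0.00731) and Ttr (0.25), the dopamine neuron score turned Th (0.00803), Dio2 (-0.0449) and Oprd1 (-0.0143), and including HH mouse 7 turned Mcm8 (0.39). The cause was not tested.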
